A study of Mus musculus with 4 samples.

Results

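Reads of total histone H3 piled up at the same 163 autosomal windows of 1 kb in every one of 4 mouse libraries. The windows were taken on a grid from position 1 of the mm8 assembly, and a window was a member when each library had 25 or more distinct positions in it. A distinct position is a position and strand at which at least 1 read with a single reported place began, so that repeats of a position count once. The 163 members are 0.00727% of the 2243292 autosomal windows in which any library had such a read. The counts at single places in all 4 libraries chose the members, so their levels are given as a description.

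Total H3, a core histone of nucleosomes throughout the genome, was precipitated with its DNA from crosslinked chromatin and the DNA sequenced (ChIP-seq), with 1 library for each of 4 groups. Embryonic stem (ES) cells of the V6.5 line, of C57BL/6-129 background, were left untreated in the first group. The others were V6.5 cells given the TGF-beta receptor kinase inhibitor SB431542 at 10 uM for 24 h, C2C12 myotubes after 48 h of differentiation in horse serum with selenium, transferrin and insulin, and 38B9 pro-B cells. Both ES cultures had been grown on irradiated embryonic fibroblasts and then passaged off them onto gelatin, and the myotube and pro-B libraries each came from 1 cell line. On the autosomes there were 13132855 distinct positions in untreated ES, 13469179 with SB431542, 12432118 in myotubes and 13015879 in pro-B cells, or 5.54 to 6.00 per window, and reads repeating a position made up 2.81% to 5.52%. With 1 library per group no difference has a replicate check, and the 95% intervals given hold only the error of counting. No input library was used here, so the number of DNA copies in the cells and the H3 recovered per copy cannot be told apart. The SB431542 library was sequenced in a different run from the rest, so treatment and run cannot be told apart either.

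A genome assembly writes tandem and dispersed repeats fewer times than cells carry them, because near-identical copies merge when sequence is assembled. Reads from every copy of such a repeat then align to the copy that was written, and they stack there in any library made from the same species. Mouse chromosomes are telocentric, with satellite arrays beside the centromere at the low-coordinate end, and these arrays are mostly absent from the assembly. Ribosomal RNA genes are another long tandem array that assemblies leave out. No mm8 sequence, gene or repeat annotation was used here, so which sequence lies under a window was not tested.

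The members were few and gathered. Members up to 10 kb apart were joined, which gave 42 clusters. Of these, 18 were single windows, 22 had 2 to 6 windows, and the remaining pair had 15 and 64 windows. In all, 145 members lay in clusters of at least 2 windows and 123 touched another member directly, in 67 runs of which the longest was 25 windows. Members occurred on 14 autosomes, with 70 on chromosome 11, 18 on chromosome 9, 13 on chromosome 1 and 10 each on chromosomes 5 and 17. Chromosomes 7, 8, 10, 16 and 19 had none.

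Most members lay at the low-coordinate ends. Within 100 kb of the first position read on a chromosome there were 95 members, or 58.3% of them, in 6 clusters on chromosomes 4, 5, 9, 11 and 18. That stretch held 0.0549% of the autosomal windows with a read. Without chromosome 11, 28 members remained there. The far ends had 3 members, in 2 clusters on chromosome 2 near chr2:181846001-181861000. At neither end lay 65 members in 34 clusters.

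The count of 25 was rare in single libraries, though not equally so. It was reached by 365 windows in untreated ES (0.0163% of the autosomal windows), 475 with SB431542 (0.0212%), 426 in myotubes (0.019%) and 6558 in pro-B cells (0.292%). The members as a set of 4 libraries made up 0.00727% of windows. Among the members, the lowest, median and highest counts were 25, 72 and 410 distinct positions in untreated ES, 25, 80 and 443 with SB431542, 25, 67 and 427 in myotubes, and 25, 65 and 372 in pro-B cells. The medians were 12.3, 13.3, 12.1 and 11.2 times the mean window of each library. Just inside the threshold, 10 members had a lowest library of 25 or 26, with medians of 30, 34, 31.5 and 28 in the same order of libraries. Just outside it, 21 windows had a lowest library of 23 or 24, with medians of 32, 33, 31 and 27.

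**Figure D1:**
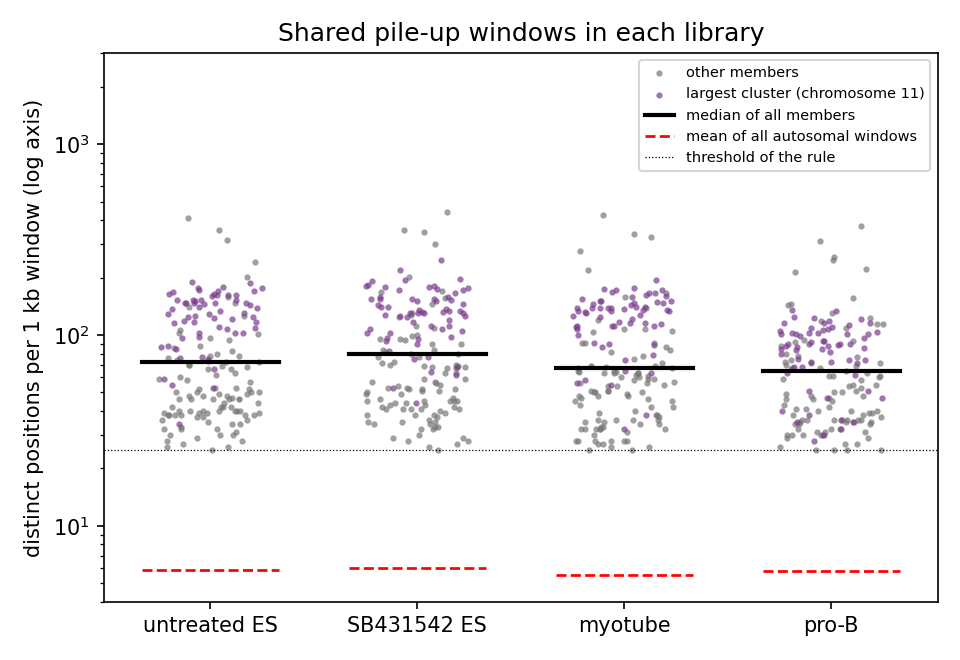
Distinct positions per 1 kb window (log axis) in each of the 4 libraries for the 163 members, with points of the largest cluster in purple, other members in grey, black bars for the median of all members, red dashes for the mean window and a dotted line at the threshold of 25. Medians lie between 65 and 80 while mean windows lie near 6, and the purple points sit lower in the pro-B library than in the other 3.

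Because the counts chose the members, each library was also measured on windows that the other 3 libraries chose alone. The untreated ES library had a median of 66 distinct positions in 175 such windows, and 93.1% of them reached 25. The SB431542 library had a median of 76 in 172 windows, with 94.8% reaching 25. The myotube library had a median of 56 in 209 windows, with 78% reaching 25, and the pro-B library a median of 55 in 185 windows, with 88.1%. These medians were 11.3, 12.7, 10.1 and 9.48 times the mean window of the library left out. The pile-ups thus appeared in a library that had no part in choosing them.

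The exceptions differed by cell line. No window chosen by the other 3 fell below 10 in either ES library, where the lowest counts were 18 (untreated) and 16 (SB431542). For each ES library, 1 of the other 3 was of the same cell line. In myotubes 13 windows on 8 chromosomes had at most 10 distinct positions while the other libraries had between 25 and 110. At chr5:105168001-105169000 the counts were 97 (untreated ES), 100 (SB431542), 0 (myotube) and 48 (pro-B), and at chr17:36092001-36093000 they were 110, 107, 3 and 83. These 2 windows were picked after their values were seen. A count of 0 allows up to 3 positions. Of the 46 windows that only myotubes missed, 23 lay near 6 Mb of chromosome 17. Of the 22 that only pro-B cells missed, 10 lay on distal chromosome 4.

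At the median edge, counts fell to near the mean window within 1 kb. In the windows adjoining the 42 clusters the median count was 7, 8, 7 and 7 distinct positions in untreated ES, SB431542, myotube and pro-B, or up to 1.33 times the mean window. At 2 windows away it was 1.02 to 1.17 times the mean. At 15 of the clusters an adjoining window stayed raised, with a mean of 20 or more over the 4 libraries, in 21 of 84 adjoining windows. At 3 windows away 10 windows of 7 clusters did. An example, picked after its values were seen, was chr17:6382001-6388000, whose preceding window had 32, 30, 21 and 34. Of 84 adjoining windows, 3 had no read at a single place in any library. Inside members, 94 windows had reads in all 10 steps of 100 bp, whereas 20 had reads in at most 5 steps and 22 had at least 50% of their distinct positions in 1 step. Members were thus partly full windows and partly narrow stacks.

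Pooled, the members also stood apart in measures that the rule did not use, though not every member did. Reads with 2 reported places are listed in a section of their own, with both places given. Across all members such lines made up 52.1%, 51.1%, 54.2% and 49.7% of all lines in untreated ES, SB431542, myotube and pro-B, against 5.75% to 5.96% over all autosomes. The 163 windows held 5.09%, 5.06%, 6.63% and 4.04% of all autosomal two-place lines, against 0.112%, 0.119%, 0.118% and 0.0934% of the distinct positions at single places. Two-place lines include repeats of a position and distinct positions do not. Of the reads at single places, repeats included, the windows held 0.294%, 0.307%, 0.349% and 0.249%. At least 1 two-place line was present in 135 members, or 82.8%, against 32.2% of all windows. Having any such line depends on how many reads a window holds, and members were chosen for high counts. These shares are thus not on equal terms. In 30 members, or 18.4%, two-place lines were at least 50% of the lines, against 3.58% of windows. The share varied widely between members, with a median of 8.47%, 28 members at 0, 74 below 5% and 59 from 5% to 50%.

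Repeats of the same position and strand, which the rule had also set aside, were frequent. Members had 2.70, 2.74, 3.05 and 2.75 reads per distinct position in untreated ES, SB431542, myotube and pro-B, against 1.03 to 1.06 over all autosomes. At least 1.5 reads per position were found in 47 members, or 28.8%, against 0.0741% of windows with a mean of 10 or more distinct positions. That share is 90 windows, and the 47 members are among them. The excess was uneven, since the median member had 1.32 reads per position and the highest 27.3. Reads repeating a position can be PCR copies or independent fragments, and these cannot be told apart without molecular identifiers. Members outside the largest cluster with under 5% two-place lines had a median of 1.07 reads per position, those from 5% to 50% had 2.33, and those at 50% or more had 2.44.

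The exact positions used were also shared between libraries in the deepest stacks. Of the positions and strands used in any library, the share used in all 4 had a median of 2.47% per window and reached 70.9%, and 32 windows had no position common to all 4. Of the 42 clusters, 19 had more than 2 reads per position and 16 had more than 10% of positions common to all 4 libraries. All 16 were among the 19. Both measures can rise where the same positions are used again, so this overlap is partly built in. Since a position and strand counts once, ratios in reads are given beside those in distinct positions for such clusters.

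Strand balance separated the members further. Over all members 47.7%, 48.3%, 46.6% and 46.9% of distinct positions were on the plus strand in untreated ES, SB431542, myotube and pro-B, against 50.0% over all autosomes in each. Single windows ran from 13.9% to 84.2%, with a median of 48.3%. Outside the range of 35% to 65% lay 50 of 163 members, 34 below and 16 above, or 30.7%. Among the 129 non-member windows with at least 100 distinct positions pooled over libraries it was 15.5%. The windows outside the range were 5 of the 64 in the largest cluster and 45 of the other 99.

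**Figure D2:**
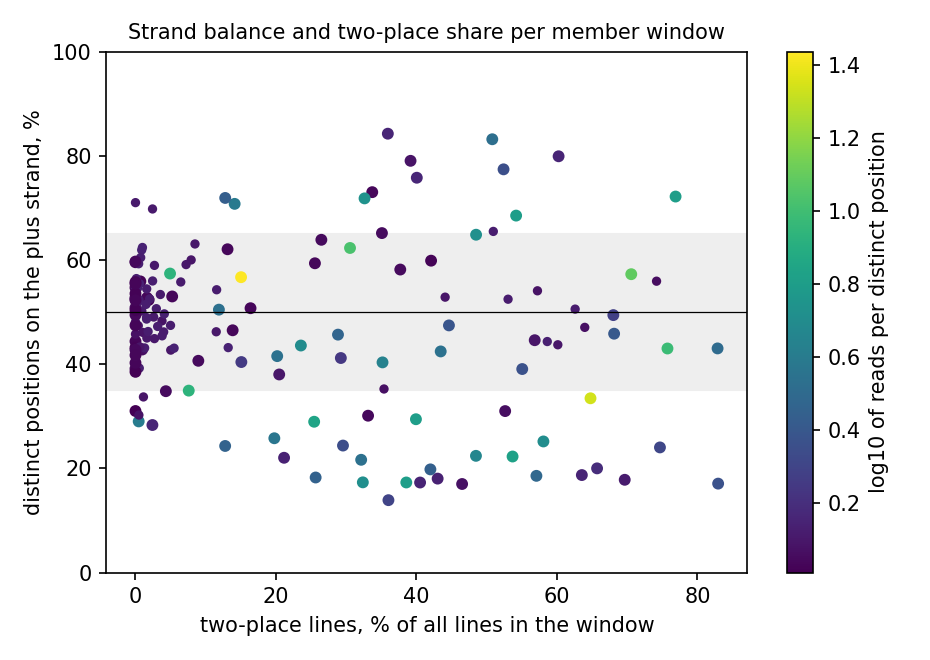
Percent of distinct positions on the plus strand against two-place lines as percent of all lines for the 163 members, pooled over the 4 libraries, with colour for log10 of reads per distinct position, small points for the largest cluster and grey shading from 35% to 65%. Windows outside the shading occur mostly among members with two-place lines of 5% or more, where the brightest points also lie.

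In the strand-skewed clusters the depth of the skew varied between libraries. By pooled counts, 10 clusters lay below 35% plus and 6 above 65%. All 64 values of these 16 clusters in 4 libraries lay on the pooled side of 50%, but 10 lay inside 35% to 65%, and the intervals of 8, in 5 clusters, included 50%. Each library is part of the pool that chose these clusters, so agreement on the side is partly built in. The median distance from 50% over these 16 clusters was 25.2 percentage points in untreated ES, 20.9 with SB431542, 32.5 in myotubes and 30.6 in pro-B cells. The SB431542 library was nearest to 50% in 10 of the 16 and the myotube library farthest in 10. At chr9:3000001-3037000 the plus share was 23.4% (interval 20.8 to 26.2) in untreated ES, 29.7% (27 to 32.5) with SB431542, 16.9% (14.7 to 19.4) in myotubes and 20% (17.2 to 22.9) in pro-B cells. At chr14:18208001-18211000, skewed the other way, it was 77.9%, 73.5%, 83.8% and 82.2%. These values were looked at after the skew had been seen. The SB431542 library was also the one from the other run, and the part of the run in this was not tested.

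The largest cluster, at chr11:3032001-3100000, held 64 members in 68 kb, with 4 non-member windows among them. Its members totalled 8080 distinct positions in untreated ES, 8577 with SB431542, 7919 in myotubes and 5423 in pro-B cells. Per window the lowest, median and highest counts were 34, 129.5 and 190 in untreated ES, 44, 133 and 248 with SB431542, 32, 133 and 193 in myotubes, and 28, 89.5 and 136 in pro-B cells. Both ES libraries and myotubes were alike in median, whereas pro-B cells were lower. Scaled to all autosomal distinct positions, the ratio to untreated ES was 1.03 for SB431542 (interval 1.00 to 1.07), 1.04 for myotubes (1.00 to 1.07) and 0.677 for pro-B cells (0.654 to 0.701). All 64 windows were lower in pro-B than in untreated ES, with log2 ratios from -1.24 to -0.07 and an SD of 0.24. With all reads as deposited the pro-B ratio was 0.622, and in two-place lines 0.646.

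The lower pro-B level was not found over the stretch that follows the cluster. The next window, which starts at 3100001, had 20 distinct positions in each of the 4 libraries. Over the first 10 kb after the cluster the totals were 85, 83, 75 and 141 in untreated ES, SB431542, myotube and pro-B. Pro-B cells were highest there, with a ratio to untreated ES of 1.67 (1.27 to 2.22). Over the 100 kb that follow the cluster the densities were 6.51, 6.86, 5.83 and 7.69 per kb in untreated ES, SB431542, myotube and pro-B, and the pro-B ratio was 1.19 (1.07 to 1.33). Over the 10 kb before the cluster the totals were 109, 112, 125 and 102, with a pro-B ratio of 0.944 (0.714 to 1.25) whose interval includes 1. The nearest windows there, from 3030001 and 3031001, had 28, 32, 32 and 18, and 26, 38, 31 and 24, lowest in pro-B cells. Chromosome 11 as a whole had a pro-B ratio of 1.01. The cluster was close to balanced on the strands, at 51.2% plus, and had 1.14 to 1.39 reads per position in its windows. None of its first 9 windows had under 5% two-place lines, whereas 45 of the 55 members from 3043001 on did. In 47 of the 64 windows reads reached all 10 steps of 100 bp. Pooled, it had 1.32, 1.32, 1.33 and 1.21 reads per position in untreated ES, SB431542, myotube and pro-B. That is above the 1.03 to 1.06 of all autosomes and below the 3.98 to 5.05 of the other members pooled. It thus combined a high level with fewer repeats than the pool of the other members and, in its later part, few two-place lines. By single windows the gap was smaller, since the median of the other members was 1.43 reads per position. Those of them with under 5% two-place lines had a median of 1.07, below every window of the cluster.

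**Figure D3:**
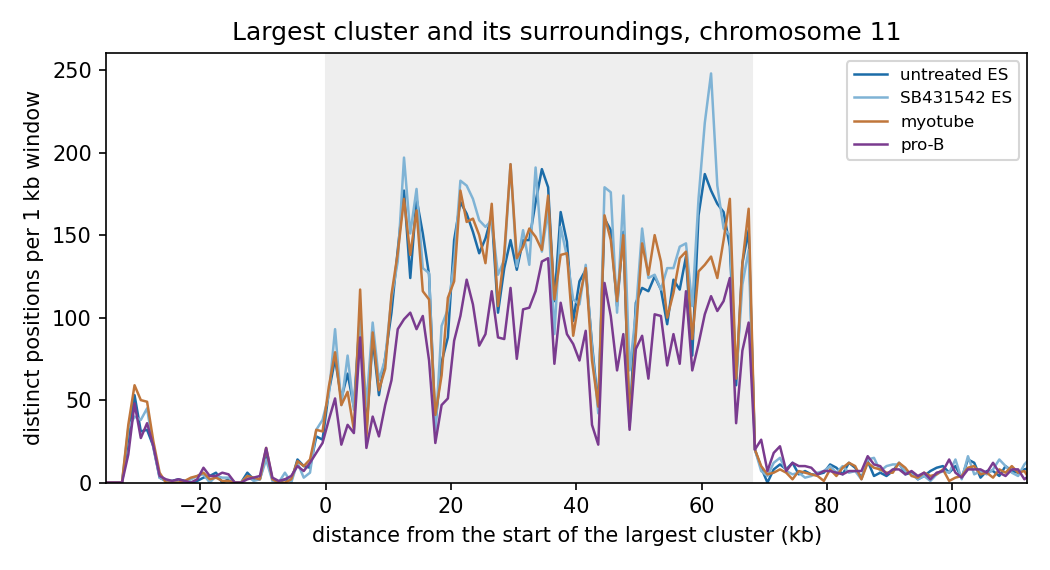
Distinct positions per 1 kb window in the 4 libraries around the largest cluster, by distance in kb from its start, with the cluster shaded. Within the shading the untreated ES, SB431542 and myotube lines have medians of 129.5 to 133 but part at single windows, with 177, 248 and 137 in the window from 3093001. The pro-B line runs lower with a median of 89.5, and all 4 meet at 20 in the next window.

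The other 5 clusters at low-coordinate ends were shorter, and 4 of them were strand-skewed. At chr5:3000001-3003000 the 3 windows had 313, 345, 328 and 246 distinct positions, then 242, 299, 275 and 215, then 106, 124, 105 and 78, in the order untreated ES, SB431542, myotube and pro-B. In each window pro-B cells were lowest, and 21.2% of positions were on the plus strand. At chr9:3000001-3037000, 15 windows averaged 64.3, 71.6, 69.3 and 52.4 distinct positions, with 22.7% on the plus strand and 3.90 reads per position. At chr4:3007001-3018000, 6 windows averaged 55.7, 52.7, 53.3 and 36.8, with 67.2% on the plus strand and a pro-B ratio of 0.668 (0.561 to 0.794). A second cluster of chromosome 11, chr11:3001001-3004000, had 3 windows averaging 38.7, 41, 52.7 and 37, with 17.3% on the plus strand and a myotube ratio of 1.44 (1.13 to 1.84). The pro-B library was the lowest of the 4 in each of these 4 clusters on unscaled counts. The remaining one, chr18:3005001-3011000, went the other way, with 306, 289, 292 and 355 distinct positions over 4 windows, 672, 705, 519 and 1941 reads and 40.5% on the plus strand.

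The highest counts of all were interior, at chr2:98463001-98469000. Its window chr2:98467001-98468000 had 410 distinct positions in untreated ES, 443 with SB431542, 427 in myotubes and 372 in pro-B cells, and chr2:98463001-98464000 had 353, 355, 338 and 312. The window before the cluster had 0, 1, 1 and 1. Over its 5 members there were 10.8 reads per position, and 43.4% of the positions used were common to all 4 libraries. In chr2:98468001-98469000 the distinct positions were 72, 77, 68 and 67 while the reads numbered 2051, 2033, 2458 and 1213, or 27.3 per position. The cluster held 24257, 24079, 29351 and 16059 two-place lines, which was 2.86%, 2.66%, 3.67% and 1.97% of all autosomal two-place lines. Its pro-B ratio was 0.895 (0.820 to 0.978) in distinct positions, 0.715 in reads and 0.688 in two-place lines.

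A pair of chromosome 14 clusters was also among the highest. The single window chr14:39187001-39188000 had 140, 170, 138 and 123 distinct positions in untreated ES, SB431542, myotube and pro-B, with 21.9 reads per position and 50.8% of positions common to all 4 libraries. At chr14:18208001-18211000, the middle window chr14:18209001-18210000 had 201, 202, 218 and 145, and the cluster had 4.12 reads per position and 79.2% of positions on the plus strand. Both were further from strand balance than the chromosome 2 cluster, at 33.5% and 79.2% plus against 47.9%. Pro-B cells had the lowest count in both.

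Some clusters had few repeats of a position and few two-place lines. In 8 clusters with 17 members two-place lines were below 2% of lines, and 6 of these had no two-place line in any library. They lay on chromosome 1 near 90 Mb and 173 Mb, on chromosome 13 near 28 Mb and on chromosome 17 near 6 Mb. They had 1.02 to 1.09 reads per position, at most 1.65% of positions common to all 4 libraries, and 31% to 52.7% of positions on the plus strand, with chr1:173364001-173365000 at 31% (23.2 to 39.7) alone outside 35% to 65%. Their levels were low for members, at 25 to 43.5 distinct positions per window in untreated ES and 28 to 67 in pro-B cells. The named cluster chr5:80491001-80497000 was similar apart from 1 window with 35.1% two-place lines, with averages of 42.7, 45.7, 43.7 and 38.2 over 6 windows, 1.10 reads per position and 53.1% plus.

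Ratios between libraries were compared over the members next. SB431542-treated and untreated ES cells were set side by side to ask whether H3 differs when TGF-beta signalling is blocked. The median log2 ratio over the 163 members was 0.07 (interval of the median 0.04 to 0.12), where the median over the 121431 autosomal windows with a mean of 10 or more was 0.05. By a rule of size of 2-fold, 4 members were higher, against 7.13% of those windows, and 0 were lower, against 5.02%. The other windows hold fewer positions than members and so vary more from counting alone, which sets their shares apart from those of members. All 4 higher members formed a single cluster.

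That cluster, chr17:39451001-39457000, was higher in the SB431542 library in every member. Its windows had 46, 95, 54 and 77 distinct positions, then 37, 127, 75 and 92, then 30, 90, 78 and 60, then 26, 81, 38 and 55, in the order untreated ES, SB431542, myotube and pro-B. Untreated ES cells were lowest in all 4 windows and SB431542-treated cells highest. Over the cluster the ratio to untreated ES was 2.76 with SB431542 (2.27 to 3.37), 1.86 in myotubes (1.51 to 2.31) and 2.06 in pro-B cells (1.68 to 2.54). With all reads as deposited these were 2.90, 1.91 and 2.12. The window chr17:39454001-39455000, between members, missed the threshold through untreated ES alone, with 23, 72, 49 and 67. The flanks did not share the difference, with SB431542 ratios of 0.901 (0.743 to 1.09) over the 100 kb before and 1.01 (0.767 to 1.34) over the 100 kb after, and 0.984 over the whole chromosome. The cluster had 1.07 reads per position and 51.6% plus. Its members chr17:39452001-39453000 and chr17:39453001-39454000 had no two-place lines.

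**Figure D4:**
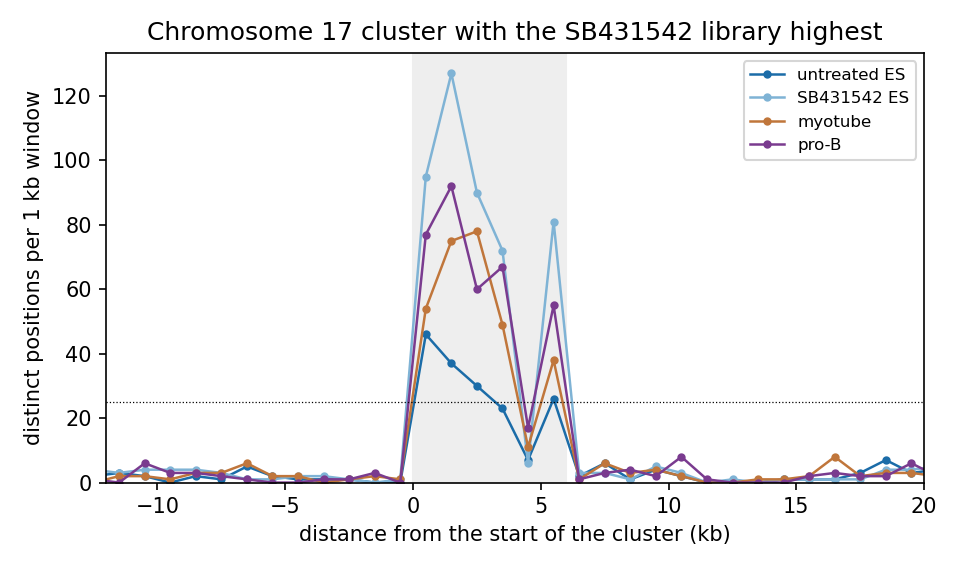
Distinct positions per 1 kb window in the 4 libraries around the chromosome 17 cluster, by distance in kb from its start, with the cluster shaded and a dotted line at 25. The SB431542 line peaks at 127 and the untreated ES line at 46, and outside the shading all 4 lines lie under 10.

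Among other members no SB431542 ratio reached 2-fold in either direction. The lowest ratios were at chr13:27958001-27959000, with 26 against 40 distinct positions (log2 ratio -0.65, ratio 0.634, 0.371 to 1.06), and chr18:3009001-3010000, with 42 against 62 (log2 ratio -0.59, ratio 0.661, 0.435 to 0.993). The first interval includes 1. In the largest cluster the highest ratio was at chr11:3080001-3081000, with 68 against 34 (log2 ratio 0.95), just under the 2-fold rule. That window was picked after its value was seen.

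Myotubes against untreated ES cells gives the difference of a muscle line from pluripotent cells. The median log2 ratio over members was 0.06 (0.02 to 0.13), against -0.03 over the windows with a mean of 10 or more. It turned to -0.043 with two-place reads added and to -0.032 over the windows chosen without the myotube library. By the 2-fold rule 4 members were higher, against 7.75% of windows, and 0 lower, against 7.96%. Of the 4, 2 lay in the chromosome 17 cluster, where untreated ES cells were lowest, and 2 on chromosome 1. At chr1:26631001-26633000 the 2 windows had 26, 39, 65 and 25, and 27, 29, 62 and 40 distinct positions in untreated ES, SB431542, myotube and pro-B. Myotubes were highest in both, and their ratio to untreated ES was 2.53 (1.82 to 3.56). The lowest myotube ratio, at chr17:6382001-6383000, rested on 25 against 53 positions (log2 ratio -0.99, ratio 0.498, 0.297 to 0.816).

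For the lymphoid line, pro-B against untreated ES cells, the members split. The median log2 ratio was -0.30 (-0.40 to -0.21) over members, against 0.24 over the windows with a mean of 10 or more. That mean includes pro-B cells, where 6558 windows reached 25 against 365 in untreated ES. A high pro-B count can thus bring a window into that set, so 0.24 and the shares below are no neutral level. Lower in pro-B cells were 127 of 163 members, but 64 of these were the largest cluster. Counting each cluster once, 24 of 42 were lower and the median was -0.07, and over members outside the largest cluster it was -0.13. By the 2-fold rule 6 members were higher, against 18.6% of windows, and 3 lower, against 6.44%. The 6 were 3 windows of the chromosome 17 cluster, 2 on chromosome 15 and 1 on chromosome 3. On scaled counts, pro-B cells were the lowest library in 115 members, 51 of them outside the largest cluster, and the highest in 22.

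The highest pro-B ratio was at chr3:8229001-8230000, with 114 against 40 distinct positions (log2 ratio 1.51, ratio 2.88, 1.99 to 4.23). At chr15:74913001-74915000 the windows had 97, 131, 63 and 221, and 68, 68, 51 and 157, in the order untreated ES, SB431542, myotube and pro-B. Pro-B cells were highest and myotubes lowest in both windows, and the pro-B ratio was 2.31 (1.92 to 2.79). In reads it was 5.08 and in two-place lines 4.67. At chr18:3005001-3006000 the counts were 158, 169, 120 and 257 distinct positions and 434, 529, 278 and 1817 reads. The same cluster was split, since chr18:3009001-3010000 had 62, 42, 64 and 30 and was among the 3 members lower in pro-B cells by the 2-fold rule (log2 ratio -1.02, ratio 0.488, 0.305 to 0.767). The lowest pro-B ratio was in the largest cluster, at chr11:3074001-3075000, with 35 against 84 (log2 ratio -1.24, ratio 0.420, 0.275 to 0.631).

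Two-place lines, counted in other reads than those of the rule, showed the same split. They include repeats of a position, whereas distinct positions count once, so the widths of their ranges are not alike in measure. Of the 25 clusters with at least 20 such lines in both libraries, 8 had a pro-B ratio to untreated ES of 2 or more and 11 had one of 0.8 or less, with 6 between. These limits were set after the values had been seen. Each such read is listed at both of its places, so clusters can hold lines of the same reads and may not be separate observations. How many lines the clusters share was not counted. The 8 high clusters, with 15 members on 6 chromosomes, had two-place ratios from 2.98 to 6.01, and their ratios of distinct positions ran from 1.06 to 2.31. The 11 low clusters, with 104 members on 7 chromosomes, had two-place ratios from 0.615 to 0.753 and ratios of distinct positions from 0.668 to 0.965. Of the 104 members, 64 were the largest cluster. Some intervals of the ratios of distinct positions include 1. Examples are chr11:3001001-3004000 (0.737 to 1.26) among the low clusters and chr2:181846001-181848000 (0.814 to 1.39) among the high ones. In reads at 1 place, which also include repeats, the ratios ran from 1.16 to 7.13 in the high clusters and from 0.501 to 0.982 in the low ones. Over all 25 clusters, 8 were above 1 in both sections of the files, 14 below 1 in both, and 3 on opposite sides of 1. An example of the high clusters, picked for its reads, was chr18:40434001-40435000, with 78, 70, 67 and 143 distinct positions, 177, 159, 203 and 1250 reads and 61, 89, 48 and 353 two-place lines.

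**Figure D5:**
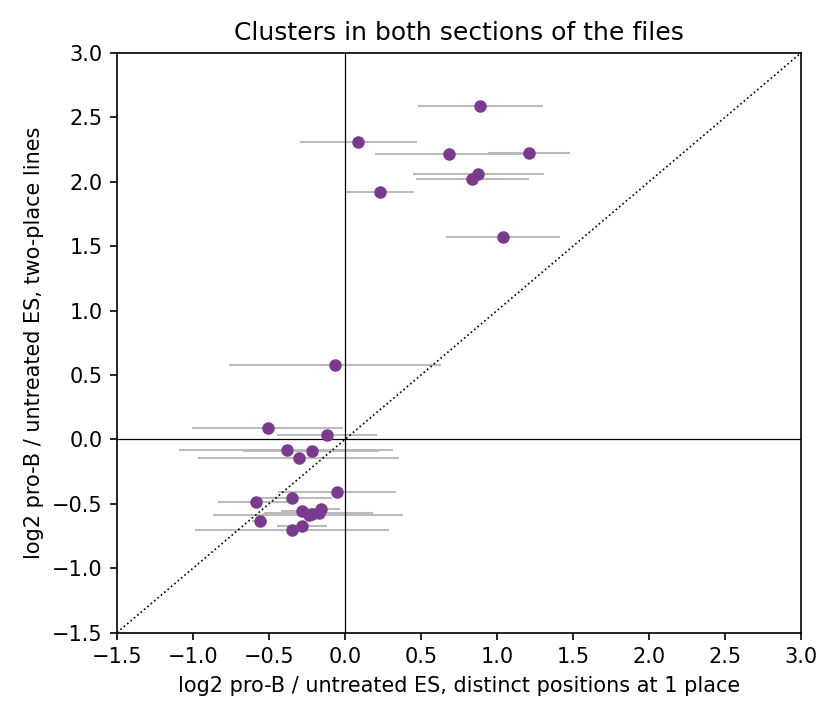
Log2 ratio of pro-B to untreated ES in two-place lines against that in distinct positions at 1 place for the 25 clusters with at least 20 two-place lines in both libraries, with grey bars for 95% counting intervals of the ratio of positions and a dotted line of equality. A group of 8 clusters lies at the upper right with two-place ratios of 2.98 to 6.01, and 14 clusters lie below 0 on both axes. Two-place lines include repeats and distinct positions do not, so distance from the dotted line mixes unlike measures.

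The split ran along with strand and with myotubes. None of the 8 high clusters lay outside 35% to 65% plus, while 8 of the 11 low clusters did. In myotubes the two-place ratio to untreated ES ran from 1.02 to 1.56 in the 11 low clusters, above 1 in each. In the 7 high clusters where it could be taken it ran from 0.680 to 0.986, below 1 in each. The SB431542 two-place ratio was above 1 in all 8 high clusters, at 1.12 to 1.72, and in 6 of the 11 low ones, at 0.930 to 1.28. These comparisons share the untreated ES library, which enters each ratio.

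Myotubes set against pro-B cells had a median log2 ratio of 0.43 (0.35 to 0.49) over members, against -0.25 over the windows with a mean of 10 or more. As above, a high pro-B count can bring a window into that set, so -0.25 is no neutral level either. In clusters the median was 0.15, with 23 above and 19 below 0, and over members outside the largest cluster it was 0.23. By the 2-fold rule 7 members were higher in myotubes, against 7.52% of windows, and 9 lower, against 20.7%. The extremes were chr1:26631001-26632000, with 65 against 25 positions (log2 ratio 1.43, ratio 2.72, 1.69 to 4.51), and chr15:74913001-74914000, with 63 against 221 (log2 ratio -1.74, ratio 0.298, 0.222 to 0.397).

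Across all 4 libraries the members were close in distinct positions, which the rule favours, since a window low in any 1 library was left out. In 136 members, or 83.4%, the scaled counts of all 4 lay within 2-fold, against 45.0% of the windows with a mean of 10 or more, which have fewer positions. Those windows needed no set count in each library, so their share and that of the members are not on equal terms. The median ratio of the highest to the lowest library was 1.56. The members outside that range included the chromosome 17 cluster higher with SB431542 and the chromosome 1 cluster higher in myotubes. A distinct position counts once however many reads begin there, so libraries can lie further apart in reads. An example, picked for its reads, was chr18:3005001-3011000, with a pro-B ratio to untreated ES of 1.17 in distinct positions and 2.91 in reads. How many members lay within 2-fold in reads was not counted.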

How the data were processed

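The deposited files list 1 signed genome position per aligned read, the sign giving the strand, in a unit of their own with no count, score or scaling. Bowtie was the aligner and mm8 the genome, per the file headers, and its version is not given in the sources used here. Its options allowed 2 mismatches in a 36-base seed, a summed mismatch quality of 70 and reads with no more than 2 places. Per the labels' protocols, sonicated extracts (500 bp on average) were precipitated with an antibody against H3 and taken through 18 PCR cycles, and products of 150 to 300 bp were kept. The sections of the files were read as reads with 1 place and reads with 2 places, both listed. That reading was inferred from their names and the alignment options.

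Here each position and strand was counted once, in windows of 1000 bp. Libraries were scaled to autosomal distinct positions, and log2 ratios of windows had 0.5 added to each count. A member's position along a chromosome was taken from the first or last position read in any library. Background shares are over all windows with a read, or those with a mean of at least 10. Intervals are exact binomial (Clopper-Pearson), conditional for ratios, and order statistics for medians over members. The latter treat neighbouring windows as independent. Intervals cover counting error only, since without molecular identifiers PCR copies cannot be told from separate molecules.

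The members and lists were chosen with earlier results of these data known. Named were the 10 clusters with the most distinct positions, the 10 windows with the highest scaled level in their lowest library, and the 3 highest and 3 lowest windows per comparison. Others are said to be picked after their values were seen. Alternatives covered thresholds, grid, scaling, reads as deposited, two-place reads and each library left out. The counting was tested on simulated positions. Python 3.11.15, numpy 2.4.6 and scipy 1.17.1 were used.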

Additional observations from a re-analysis of the deposited data

Results flagged for a closer look

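The windows described above are autosomal, and the same count was applied to the sex chromosomes, which the comparisons do not use. There, 9 windows of chromosome X reached 25 distinct positions in all 4 libraries, out of 132891 windows with a read, and 0 of 1599 did on chromosome Y. What singles them out is a pile-up in data outside the comparisons. Of the 9, 7 lay within chrX:165321001-165330000, with almost no two-place lines. In its window chrX:165323001-165324000 the counts were 31 in untreated ES, 33 with SB431542, 39 in myotubes and 134 in pro-B cells. The window chrX:138729001-138730000 had 73, 75, 74 and 68 distinct positions, 1011, 2022, 1130 and 885 reads and 1465, 2667, 1497 and 1332 two-place lines.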

How the results depend on the processing

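Of 156 recomputed summary values, 109 stayed within their spread or within 1.5-fold, 45 moved and 2 reversed, and of 120 ratios of named clusters 19 moved. Of these 120, 3 crossed 1, all with intervals that included 1 as reported: chr18:3005001-3011000 from 1.01 to 0.811 (myotube, all reads) and from 0.921 to 1.07 (SB431542, two-place reads), and chr14:18208001-18211000 from 1.02 to 0.988 (SB431542, all reads). The positions counted from 0 and the removal of the largest cluster were chosen after seeing the data. Apart from thresholds, whose effect on counts follows from their construction, the cause was not tested. Of 163 windows in 42 clusters, a threshold of 40 left 99 in 25, two-place reads gave 430 in 92, touching windows only made 67 clusters, and 99 windows lay outside the largest cluster. The median levels of 12.3 (untreated ES), 13.3 (SB431542), 12.1 (myotube) and 11.2 (pro-B) times the mean window became 8.20, 8.83, 9.20 and 7.93 at a threshold of 20, 19.99, 21.0, 20.9 and 15.2 at 40, and 8.03, 8.66, 9.20 and 8.10 without the largest cluster. With all reads they were 18.8 (untreated ES), 19.7 (SB431542) and 15.1 (pro-B), and with two-place reads 8.87, 8.96 and 8.19 (myotube). Leaving out each library gave 9.05 to 11.4, 10.3 to 12.7, 10.1 to 11.6 and 8.79 to 10.5, the lowest always without myotubes. Without the largest cluster the median plus share was 43.6%, the two-place share 26.5% and the reads per position 1.43, and the last was 1.26 at a threshold of 20 and 1.28 to 1.31 with a library left out. The median log2 ratio of SB431542 to untreated ES was 0.0284 with two-place reads. That of myotubes was 0.14 with all reads and reversed to -0.043 with two-place reads, and with a library left out it was -0.032 (without myotubes) to 0.092. That of pro-B cells was -0.19 at a threshold of 20, -0.41 at 40, -0.44 with all reads, -0.14 with two-place reads and -0.13 without the largest cluster. That of myotubes to pro-B was 0.31 at a threshold of 20, 0.60 with all reads, 0.11 with two-place reads, 0.23 without the largest cluster and 0.26 (without myotubes) to 0.48 with a library left out. Scaling to the median bin shifted log2 ratios by at most 0.06 either way. No paired analysis was possible because each group has 1 library. Depth limits single windows near 25 positions to wide intervals.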
